A study of Mus musculus with 73 samples.

Results

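Brush border digestive enzymes are the membrane-bound hydrolases that line the microvilli of enterocytes, the absorptive cells of the small intestine. The genes described here were 9 listed by name, *Lct*, *Sis*, *Mgam*, *Treh*, *Anpep*, *Dpp4*, *Enpep*, *Ace* and *Alpi*, out of 17399 genes in the bulk epithelium table and 21058 genes in the single-cell table. All 9 were present in both tables and all passed the filters on low counts of both comparisons.

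Bulk jejunal epithelium came from 8 male mice of strain Lgr5(GFP-ires-DTR/+), aged 4 months, in which the *Lgr5* locus drives the receptor for diphtheria toxin (DT). 4 mice received DT and 4 received vehicle (control), and the epithelium was taken 48 h later. All 8 mice carried the receptor allele, and DT-treated mice without it were not analysed here. Since *Lgr5* is used both by villus tip telocytes, the stromal cells under the tip epithelium, and by crypt stem cells, the toxin can act on both. Single cells were sorted through several gates from the jejunum of C57BL/6 male mice aged 3 months, without treatment, and laser capture microdissection (LCM) gave stroma of 4 zones from the crypt to the villus tip of 5 untreated mice of the same age.

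The last steps of carbohydrate and peptide digestion take place on the enterocyte surface. Disaccharidases split lactose, sucrose, starch fragments and trehalose into monosaccharides, peptidases cut amino acids or dipeptides from peptide ends, and intestinal alkaline phosphatase removes phosphate groups, including those of bacterial lipopolysaccharide. Enterocytes are born at the crypt, move up the villus within days and are shed at the tip, so that position on the villus and age of the cell go together. At the tip, enterocytes express a purine program, in which *Nt5e* and *Ada* break down nucleotides and nucleosides and *Slc28a2* takes up nucleosides. The sum of the UMIs (unique molecular identifiers, each marking 1 counted transcript) of these 3 genes served here as a tip score of single cells, and cells with a score of 3 or more were compared with cells at 0.

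The regulatory sequence just before 4 of the genes is shown because these genes stood at the extremes of the comparisons below: *Sis* was the enzyme with the lowest, and *Alpi* and *Treh* those with the highest, relative levels in cells with a high tip score, and *Lct* is the textbook brush border marker. The 250 bases before the RefSeq start (GRCm38.p6) are written 5′ to 3′ on the strand of the gene, and all lie outside the transcribed part. Motifs were searched on both strands, in windows from 250 bases before the start to 50 bases after it. In *Sis* capitals mark TATAAA, the letters of the core promoter box, on both strands, 138 to 129 bases before the start. In *Alpi* and *Treh* they mark CAAAGTCCA, a site type of HNF4 factors. In *Lct* they mark AGATAA, a site type of zinc finger factors such as *Gata4*. The genes shown and the motifs were chosen with the levels known, and other spellings of the HNF4 site type were tried before this one was kept.
Sis, chr3:72967864-72968113, minus strand: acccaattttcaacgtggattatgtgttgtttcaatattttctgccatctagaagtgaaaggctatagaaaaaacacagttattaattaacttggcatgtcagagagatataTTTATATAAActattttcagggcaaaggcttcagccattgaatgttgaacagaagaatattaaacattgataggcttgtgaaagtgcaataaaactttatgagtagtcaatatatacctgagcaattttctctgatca
Alpi, chr1:87101607-87101856, minus strand: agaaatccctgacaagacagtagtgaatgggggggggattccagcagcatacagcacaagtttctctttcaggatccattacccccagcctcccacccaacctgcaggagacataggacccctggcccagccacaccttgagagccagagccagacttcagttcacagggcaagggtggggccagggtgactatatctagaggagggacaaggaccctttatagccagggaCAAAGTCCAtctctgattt
Treh, chr9:44672983-44673232, plus strand: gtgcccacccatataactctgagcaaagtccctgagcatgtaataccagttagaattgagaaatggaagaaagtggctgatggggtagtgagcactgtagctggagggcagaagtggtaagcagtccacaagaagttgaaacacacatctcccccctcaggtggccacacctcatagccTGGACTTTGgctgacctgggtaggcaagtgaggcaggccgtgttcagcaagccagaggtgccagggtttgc
Lct, chr1:128328319-128328568, minus strand: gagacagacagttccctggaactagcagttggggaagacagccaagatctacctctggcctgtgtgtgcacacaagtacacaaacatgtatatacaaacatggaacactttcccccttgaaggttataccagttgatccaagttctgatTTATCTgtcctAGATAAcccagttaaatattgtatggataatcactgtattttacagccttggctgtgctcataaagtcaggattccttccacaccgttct

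CAAAGTCCA lay 19 to 11 bases before the start of *Alpi* and, on the opposite strand, 71 to 63 bases before that of *Treh*. Among the 9 enzymes only these 2 held it, against 126 of all 32851 promoter windows (0.384%). AGATAA was found in *Lct*, *Mgam* and *Dpp4* and in 9.99% of all windows. TTTAT, the core of CDX factor sites, was found in 7 of the 9 enzymes, all but *Treh* and *Anpep*, and in 37.3% of all windows, and TATAAA, whose opposite strand overlaps TTTAT, in 6 of the 9, all but *Lct*, *Treh* and *Anpep*, and in 12.4%. These matches describe the letters only.

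The genes lie on 7 chromosomes. In the GENCODE annotation of GRCm38, *Sis* spans chr3:72888557-72967863, *Enpep* chr3:129269175-129332720, *Lct* chr1:128284756-128328318, *Alpi* chr1:87098002-87101606 and *Dpp4* chr2:62330073-62412231, all on the minus strand, as does *Anpep* at chr7:79821803-79861059. *Mgam* at chr6:40628831-40769123, *Treh* at chr9:44673233-44686305 and *Ace* at chr11:105967945-105989964 are on the plus strand.

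The bulk samples held 748458 to 4210158 UMIs each and the values below are CPM, UMI counts scaled to the same total in each sample. The samples form 2 batches, a with control 1, control 2, DT 1 and DT 2, and b with the other 4, and the batch was a term of the fit. The tip genes of the score were much lower after DT: *Ada* was at 588 ± 21.3 CPM (SD, n = 4) in control and 149 ± 46.6 in DT, and *Nt5e* at 66.3 ± 29.2 and 10.8 ± 6.59, and both passed (edgeR, adjusted p = 0.0106 and 0.0381). *Slc28a2*, at 101 ± 29.3 and 36.0 ± 25.0 CPM, had an adjusted p of 0.125. *Lgr5* itself was at 42.8, 69.5, 11.2 and 24.2 CPM in controls 1 to 4 and at 47.2, 32.4, 6.37 and 13.2 in DT 1 to 4, so its groups overlapped.

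Most enzymes had lower levels in the epithelium of DT-treated mice, but none passed the test. The fitted log2 fold change was negative for 8 of the 9, as for 49.5% of all genes tested, and its median was -0.62, against 0.004 over all genes tested. None of the 9 had an adjusted p under 0.05 (edgeR), beside 0.356% of the 8986 genes tested, 32 genes of which 30 were lower (0.334%). With DESeq2, which called 1.09% of genes lower, *Lct*, *Mgam* and *Enpep* passed (adjusted p = 0.0180, 0.0289 and 0.000144). 6 of the 9, *Lct*, *Mgam*, *Treh*, *Dpp4*, *Enpep* and *Ace*, were lower at an unadjusted p under 0.05, beside 8.44% of all genes. The bulk epithelium cannot tell fewer cells of a type from less RNA per cell.

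*Lct*, the lactase that digests milk sugar, was at 1850, 1260, 993 and 787 CPM in controls 1 to 4 and at 1251, 842, 557 and 481 CPM in DT 1 to 4. The 2 DT samples of each batch were below both controls of that batch, while across batches the groups overlapped. The fit gave a log2 fold change of -0.73 ± 0.23 (SE; edgeR, adjusted p = 0.222; two-sided exact permutation p = 0.171 on log2 CPM), and the DT mean was 67.3% of the control mean in batch a and 58.3% in batch b.

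*Sis*, the sucrase-isomaltase, behaved unlike *Lct*. Its levels were 2643, 2131, 1793 and 1317 CPM in control and 3057, 2971, 1352 and 1006 CPM in DT. Both DT samples of batch a were above their controls, with a mean ratio of 1.26, and in batch b the ratio was 0.758 with overlapping values. The fitted log2 fold change was -0.09 ± 0.25 (adjusted p = 0.884 with edgeR, 95% interval -0.63 to 0.46).

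*Mgam*, the maltase-glucoamylase that finishes starch digestion, was at 3507, 3792, 2005 and 1331 CPM in control and at 2937, 2484, 899 and 1117 CPM in DT. Again each DT sample was below both controls of its batch, and the fit gave -0.64 ± 0.23 (edgeR, adjusted p = 0.232). *Treh*, the trehalase, was at 279, 299, 170 and 145 CPM in control and at 191, 207, 137 and 88.5 CPM in DT, with the same order inside each batch and a log2 fold change of -0.56 ± 0.19 (edgeR, adjusted p = 0.223). Within batch a the groups did not overlap for *Lct*, *Sis*, *Mgam*, *Treh*, *Anpep* and *Enpep*, and of these only *Sis* was higher in DT. The 5 lower enzymes stood beside 14.3% of all genes tested that were lower without overlap in batch a, and *Sis* beside 28.1% that were higher. Within batch b 6 of the 9, *Lct*, *Mgam*, *Treh*, *Dpp4*, *Enpep* and *Ace*, were lower without overlap, beside 17.9% of all genes.

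Among the peptidases, *Enpep*, the glutamyl aminopeptidase that trims acidic residues, showed the clearest difference. It was at 935, 820, 907 and 874 CPM in control and at 572, 673, 385 and 467 CPM in DT. Every DT sample was below every control, also across batches, as was the case for 1.49% of all genes tested. The log2 fold change was -0.84 ± 0.21 (edgeR, adjusted p = 0.153), and the two-sided exact permutation p was 0.0286, the smallest that 4 against 4 samples can give. *Enpep* also had nearly equal control means in the 2 batches, 878 and 890 CPM.

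*Anpep*, the aminopeptidase N that removes neutral residues, was at 3261, 3078, 759 and 729 CPM in control and at 2143, 1878, 154 and 939 CPM in DT. Its control mean was 4.26 times higher in batch a than in batch b, the widest batch gap among the 9 enzymes, and DT 3 was far below the rest. The fit gave -0.62 ± 0.41 (edgeR, adjusted p = 0.437), with an interval of -1.52 to 0.28. It was -0.31 without DT 3 and -1.31 without DT 4.

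*Dpp4*, the dipeptidyl peptidase that also inactivates incretin hormones, was at 550, 405, 458 and 397 CPM in control and at 399, 419, 194 and 275 CPM in DT. *Ace*, which cuts dipeptides from peptide ends at the brush border and is better known for making angiotensin in vessels, was at 1052, 649, 645 and 621 CPM in control and at 833, 677, 216 and 419 CPM in DT. For both, the ratio of DT to control was lower in batch b (0.548 and 0.502) than in batch a (0.856 and 0.888), and only in batch b did the groups not overlap; the difference between batches was not tested. Their fitted log2 fold changes were -0.61 ± 0.22 and -0.64 ± 0.28 (edgeR, adjusted p = 0.232 and 0.263).

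*Alpi*, the intestinal alkaline phosphatase, was the only enzyme whose fitted change was not negative. It was at 505, 345, 519 and 620 CPM in control and at 366, 388, 1008 and 369 CPM in DT. The value of DT 3 was far above the other 3 DT samples. The log2 fold change was 0.0002 ± 0.32 (edgeR, adjusted p = 1.00) and without DT 3 it was -0.42 (adjusted p = 0.419).

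**Figure D1:**
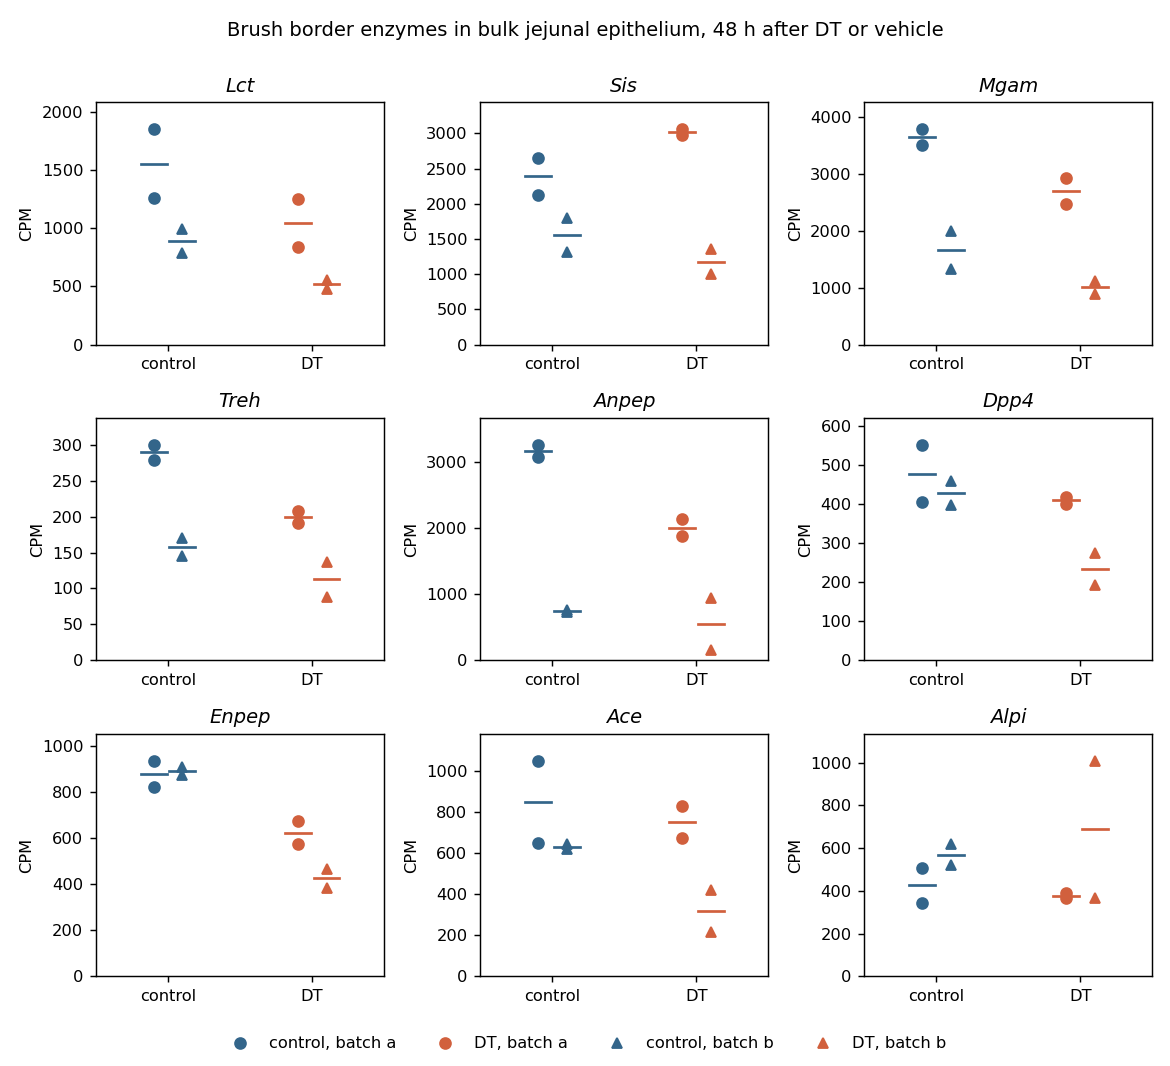
CPM of each enzyme in the 8 bulk samples (vertical axis from 0, groups on the horizontal axis, circles for batch a, triangles for batch b, bars for the mean of each batch). *Enpep* is the only panel in which all DT samples, 385 to 673 CPM, lie below all control samples, 820 to 935 CPM, and *Alpi* in DT 3 stands at 1008 CPM.

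The 9 enzymes summed to less in the samples of batch b, though not each of them was lower there. Among the controls *Enpep* was nearly level between the batches, and *Alpi* was at a mean of 425 CPM in batch a and 570 CPM in batch b. The 9 enzymes made up 1.46%, 1.28%, 0.825% and 0.682% of all UMIs in controls 1 to 4 and 1.17%, 1.05%, 0.490% and 0.516% in DT 1 to 4. Each DT sample was thus below both controls of its own batch, while DT 1 and DT 2 were above controls 3 and 4.

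Other genes of the apical surface had negative fold changes of a like size after DT. Of 15 further apical hydrolases 11 were tested, and 10 of these had a negative log2 fold change (median -0.67, 8 lower at an unadjusted p under 0.05, none past the adjusted threshold). They included *Mme*, the neprilysin, at 1378 ± 733 CPM in control and 771 ± 390 in DT (log2 fold change -0.91, adjusted p = 0.146 with edgeR), and *Enpp7*, the alkaline sphingomyelinase, at 14.8 ± 4.90 and 3.53 ± 2.96 CPM (-2.46, adjusted p = 0.0613 with edgeR). All 14 genes of microvillus structure were on the negative side (median -0.51, 9 at an unadjusted p under 0.05, none past the adjusted threshold), among them *Vil1*, which encodes the actin bundler villin, at 1369 ± 518 and 947 ± 453 CPM, and *Myo1a*, the brush border myosin, at 1219 ± 517 and 760 ± 270 CPM.

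Of 12 nutrient and ion transporters of enterocytes, all but the basolateral *Slc2a2* of the apical side, 10 had a negative log2 fold change (median of the list -0.34), 2 of them at an unadjusted p under 0.05, and none passed. The peptide transporter *Slc15a1*, which takes up the di- and tripeptides that the peptidases release, was at 552 ± 73.9 CPM in control and 301 ± 107 in DT (log2 fold change -0.98, adjusted p = 0.137 with edgeR). *Slc5a1*, the sodium-glucose transporter that takes up the glucose released by the disaccharidases, was at 2476 ± 660 and 1921 ± 601 CPM (-0.44, adjusted p = 0.335 with edgeR), and *Slc2a5*, the fructose transporter, at 125 ± 19.7 and 147 ± 24.2 CPM (0.17, adjusted p = 0.587 with edgeR). Of 14 transcription factors of enterocytes none passed, 8 were on the negative side and the median was -0.11. The lowest of them were *Prdm1* (-0.98), *Maf* (-0.94) and *Klf4* (-0.75), while *Hnf4a* and *Cdx2*, general regulators of intestinal genes, stood at -0.11 and -0.16.

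Markers of other cell types were read in the same samples. None of the 6 epithelial markers (median -0.02) and none of the 6 enterocyte markers (median -0.08) passed, with summed levels of 3300 to 6119 CPM in control and 4479 to 5860 CPM in DT for the former, and 33264 to 49897 and 35421 to 54198 CPM for the latter. Single enterocyte markers moved apart, 4 with a negative and 2 with a positive fold change. *Fabp1* was at 8687 ± 2227 CPM in control and 16962 ± 4269 in DT (log2 fold change 0.91, adjusted p = 0.222 with edgeR). *Krt20* was at 1266 ± 401 and 884 ± 101 CPM (-0.55, adjusted p = 0.254 with edgeR). All 3 tested tuft cell markers, of 5 listed, were called lower, and their list summed to 37.4 to 63.5 CPM in control and 3.19 to 12.6 CPM in DT. Of 4 Paneth markers all were on the negative side and 1, *Mptx2*, was called lower, and the list summed to 320.6 to 1328 CPM in control and 186 to 430 CPM in DT. The enteroendocrine markers, 5 tested and none called, summed to 513 to 887 and 345 to 598 CPM. Of 6 crypt stem cell markers none was called, and 5 were on the positive side, with *Lgr5* (-0.75) the only negative one. They summed to 208 to 414 CPM in control and 317 to 503 CPM in DT. The 6 goblet markers summed to 4783 to 9694 and 3838 to 5484 CPM, and the 8 proliferation markers, all on the positive side with none called, to 524 to 841 and 795 to 1079 CPM. The 8 immune markers, all on the negative side with none called, summed to 286 to 2065 and 163 to 1160 CPM. The fibroblast markers stayed at 2.90 to 21.1 CPM in all samples, and *Il25* of tuft cells was at 0. Of the 3 endothelial markers *Cdh5* and *Kdr* were at 0, while *Pecam1* was at 11.1 ± 8.84 CPM in control and 6.42 ± 5.57 in DT (log2 fold change -0.98, adjusted p = 0.222 with edgeR). The part of these cell types in the values of the enzymes was not tested.

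For 4 enzymes the genes with the most similar profile over the 8 samples were taken, after subtraction of the batch means from log2 CPM. *Lct* was followed most closely by *Cdhr5*, a protocadherin that links microvilli (Pearson r = 0.982), *Trim15* (0.981) and *Creb3l2* (0.979), and *Sis* by *Atg5* (0.976), *Nts* (0.971) and *Gpa33* (0.956). *Anpep* was followed by *Scyl2* (0.991), *Ago3* (0.989) and *Xrn1* (0.980), and *Alpi* by *Sqrdl* (0.970), *Idh1* (0.964) and *Gstt1* (0.964). The points of each correlation share library, depth and batch, and the genes were picked as the highest among all genes tested. The means of DT and control were not subtracted, so the treatment is part of each correlation. DT 3 held the lowest *Anpep* (154 CPM) and the highest *Alpi* (1008 CPM), and the weight of this 1 sample was not tested.

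The single cells could be split by the tip score, which the bulk does not allow. Position on the villus was not measured, and a score of 0 means only that no UMI of the 3 genes was counted. After filters on UMIs and genes, 2347 cells remained, and 1215 of them had a UMI of *Epcam*, the epithelial adhesion gene. Of these 881 had a tip score of 0, 92 a score of 1 or 2 and 242 a score of 3 or more, with median depths of 2136, 2672 and 1712 UMIs. The test compared UMIs summed over cells in the 3 mice, called A, G and H, that had at least 10 cells of both classes, with 512 cells at 0 and 228 at 3 or more. 4 of the 6 epithelial and 3 of the 6 enterocyte markers were called higher in cells with a high score and 1 of each lower (*Krt19* and *Fabp1*). Over the 242 and 881 cells of all mice, not only those tested, the lists summed to 8105 against 4655 CPM and to 81609 against 38114 CPM. Goblet markers, none called and 5 of 6 with a positive fold change, summed to 2269, 32.6 and 312 CPM in the cells at 0 of mice A, G and H and to 86.2, 1474 and 6623 CPM in their high cells, so that they were lower in mouse A and higher in mice G and H. Fibroblast markers summed to 34.6 to 300 CPM in the cells at 0 and 0 to 62.0 CPM in the high cells. Immune markers were at 0 in both classes of mouse A, at 0 and 25.1 CPM in mouse G and at 725 and 77.5 CPM in mouse H, and *Ptprc* and *Pdgfra* were each seen in 1 of the 242 high cells. The part of other cell types in the values below was not tested.

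2 of the 9 enzymes passed the test in opposite directions. *Sis* was lower and *Alpi* higher in cells with a high tip score, beside 7.36% of the 8452 genes tested that were called lower and 6.07% called higher (13.4% in either direction). The other 7 did not pass, and the median log2 fold change of the 9 was -0.33, against -0.10 over all genes. This fit held no term for the mouse, though each mouse gave both classes. With the mouse as a block 3 of the 9 passed, *Treh* being the one added.

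*Sis* was at 1410, 2296 and 1262 CPM in the cells at 0 of mice A, G and H and at 214, 370 and 481 CPM in their cells with a high score. The classes did not overlap, as for 22.5% of all genes in the lower direction, and every mouse moved down. The fitted log2 fold change was -1.96 ± 0.34 (edgeR, adjusted p = 1.01e-06). The unpaired exact permutation p of 3 against 3 sums was 0.1, the smallest that design allows. Without mouse G the adjusted p was 0.0671 (edgeR) at a log2 fold change of -1.69.

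*Alpi* moved the other way, from 522, 554 and 2162 CPM at 0 to 1537, 2892 and 2792 CPM at 3 or more. It rose in all 3 mice, but little in mouse H, whose cells at 0 already held more *Alpi* than the high cells of mouse A. The log2 fold change was 1.53 ± 0.31 (edgeR, adjusted p = 6.03e-05). The call was lost without mouse G (1.01, adjusted p = 0.305) and without the plates sorted for doublets (1.19, adjusted p = 0.0690).

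*Treh* was at 173, 157 and 350 CPM in cells at 0 and at 240, 402 and 434 CPM in cells at 3 or more, higher in each of the 3 mice. Its log2 fold change was 1.05 ± 0.40 (edgeR, adjusted p = 0.0584), and with the mouse as a block the adjusted p was 0.0134. *Anpep* was at 2274, 3216 and 2574 CPM at 0 and at 1424, 1355 and 946 CPM at 3 or more, with a log2 fold change of -0.74 ± 0.30 and an adjusted p of 0.0859 (edgeR). Its classes did not overlap, as for 22.5% of all genes in the lower direction.

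*Enpep* was at 179, 291 and 287 CPM at 0 and at 93.7, 151 and 77.5 CPM at 3 or more (log2 fold change -0.81 ± 0.44, edgeR, adjusted p = 0.238). The classes did not overlap, as for 22.5% of all genes in the lower direction, and the counts were small, 55 UMIs over all 242 high cells. *Ace* was at 289, 409 and 999.7 CPM at 0 and at 296, 276 and 202 CPM at 3 or more, so that mouse A showed no fall (-0.67 ± 0.37, edgeR, adjusted p = 0.255).

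The remaining 3 enzymes had intervals that included 0. *Lct* was at 474, 594 and 800 CPM at 0 and at 465, 427 and 481 CPM at 3 or more, with a log2 fold change of -0.08 and an interval of -0.77 to 0.61. *Mgam* was at 858, 1160 and 1849 CPM and at 596, 954 and 869 CPM (-0.33, interval -0.96 to 0.30). *Dpp4* was at 343, 307 and 425 CPM and at 217, 326 and 186 CPM (-0.16, interval -0.92 to 0.61). The fitted changes are less negative than the CPM ratios because the TMM scaling (trimmed mean of M values) factors were 1.10 to 1.15 in the sums at 0 and 0.792 to 1.02 in those at 3 or more, and without mouse H the log2 fold changes of *Lct* (0.11), *Dpp4* (0.090) and *Ace* (0.089) were positive. That of *Lct* was positive in 2 other alternatives as well.

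**Figure D2:**
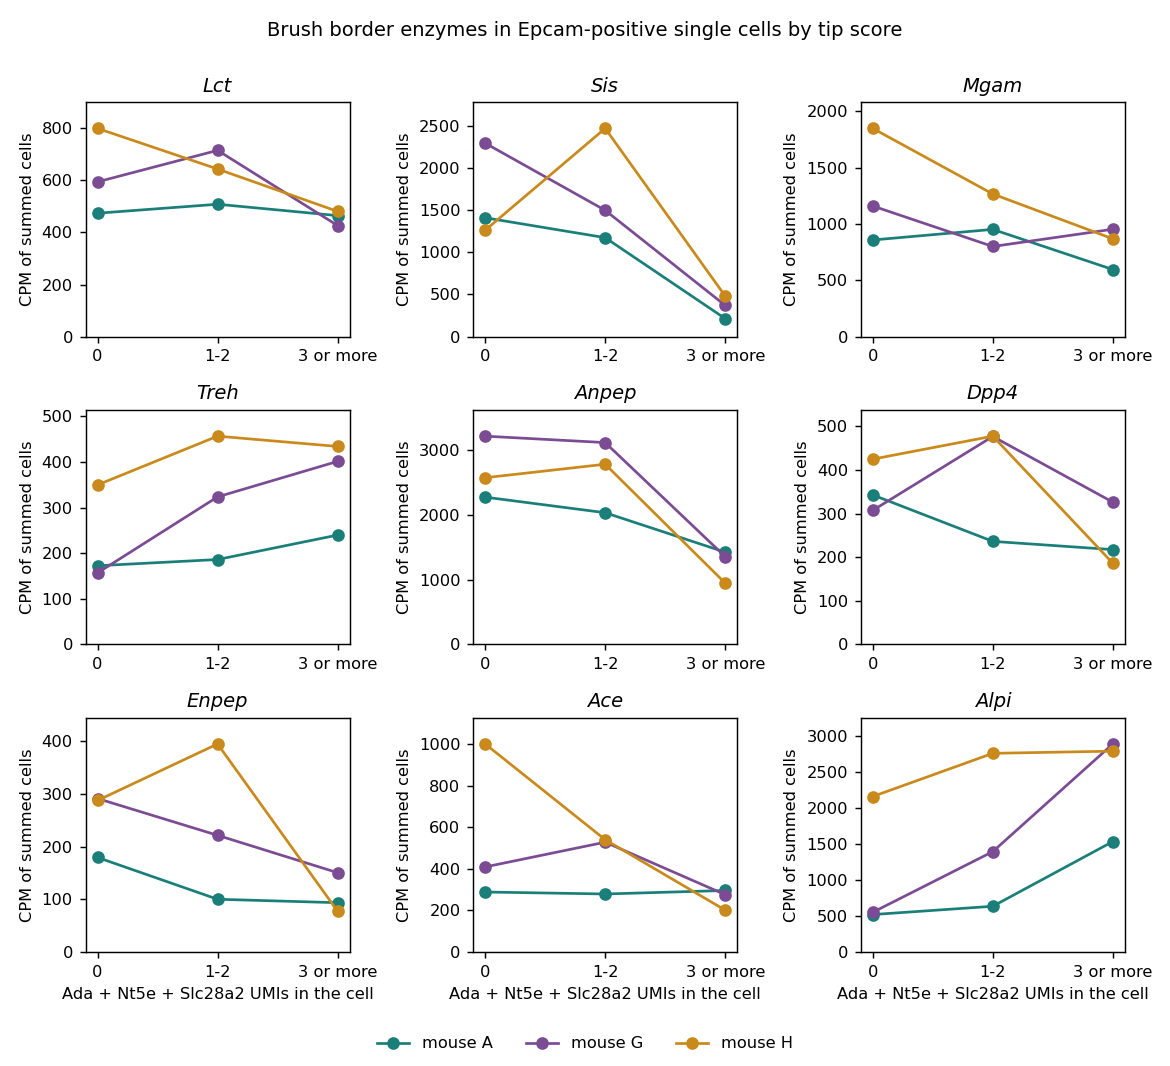
CPM of each enzyme in UMIs summed over the *Epcam* cells of each mouse (vertical axis from 0) against the tip score of the cells. *Sis* ends at 214 to 481 CPM in the cells with a score of 3 or more and *Alpi* at 1537 to 2892 CPM.

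Summed over all mice, cells with intermediate scores lay between the extremes for *Sis* and *Alpi*. In these sums *Sis* was at 1966 CPM in cells at 0, 1692 at 1 or 2, 643 at 3 to 9 and 240 at 10 or more. *Alpi* was at 642, 1188, 1496 and 2413 CPM in the same 4 steps, and *Anpep* at 2724, 2581, 2021 and 1059 CPM. The order was thus the same at each step for these 3. *Mgam* (1268 to 737 CPM), *Dpp4* (410 to 254 CPM) and *Enpep* (272 to 82.8 CPM) also fell at each step. *Treh* was at 186, 261, 322 and 320 CPM, and *Lct* lay between 504 and 685 CPM without a steady order. These sums weight mice by their cells and are given without a test. In mouse H the cells at 1 or 2 were above both other classes for *Sis* (2471 CPM), *Anpep* (2783 CPM), *Dpp4* (478 CPM) and *Enpep* (395 CPM). The same held for *Dpp4* in mouse G (477 CPM) and for *Mgam* in mouse A (952 CPM), while *Mgam* in mouse G was lowest at 1 or 2 (801 CPM).

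The share of cells with a UMI also differed between the classes. *Sis* was seen in 74.1% of the 881 cells at 0 (95% exact interval 71.1% to 77.0%) and in 26.0% of the 242 cells at 3 or more (20.6% to 32.0%), and *Alpi* in 52.4% (49.1% to 55.8%) and 88.8% (84.2% to 92.5%). These shares pool the cells of all mice, also those outside the test. In mice A, G and H *Sis* was seen in 67.8%, 79.3% and 64.3% of cells at 0 and in 23.5%, 23.0% and 31.8% at 3 or more. *Alpi* was seen in 52.8%, 54.9% and 59.5% and in 86.4%, 91.9% and 90.9%. The pooled cells were also thinned to 400 UMIs per cell, so that depth was equal and no cell was lost. The shares were then 43.7% and 7.80% for *Sis*, 20.1% and 51.4% for *Alpi* and 58.8% and 33.0% for *Anpep*. In 124 cells with *Pdgfra* but no *Epcam*, which should lack *Sis* and *Alpi*, *Sis* was seen in 2.42% and *Alpi* in 0 of 124 cells (upper 95% limit of the share 2.93%), at a median of 1095 UMIs. These intervals cover counting error only.

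The balance of the 2 called enzymes does not depend on scaling. *Alpi* made up 27.0%, 19.4% and 63.1% of the UMIs of *Alpi* plus *Sis* in the cells at 0 of mice A, G and H, and 87.8%, 88.7% and 85.3% in their cells at 3 or more. The mice differed at a score of 0 and came close to each other at a high score. Cells with either transcript were also counted, pooled over all mice, also those outside the test. Of these, 153 of 724 at 0 held more *Alpi* than *Sis* (21.1%). So did 39 of 80 at 1 or 2 (48.8%) and 200 of 219 at 3 or more (91.3%). In mice A, G and H the counts were 59 of 220, 25 of 159 and 20 of 36 at 0. In mouse H most cells at 0 (55.6%) thus already held more *Alpi*. At 3 or more they were 106 of 116, 66 of 70 and 19 of 20. The 2 enzymes were those called in opposite directions in the same cells, so their balance is not independent of those calls.

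The high cells came unevenly from the sort gates. In the 3 mice tested, 45 of them stood on plates sorted for CD45, where only 5 cells at 0 were found, and 98 on plates sorted for EpcamPdgfraDoublets, with 156 cells at 0. Within the latter gate *Sis* was at 1316 CPM at 0 and 181 CPM at 3 or more, and *Alpi* at 525 and 1699 CPM. Within PdgfraSinglets *Sis* was at 2087 and 229 CPM and *Alpi* at 536 and 1331 CPM, and within Nt5ePdgfraDoublets at 1393 and 355 CPM and at 485 and 1131 CPM. Within EpcamSinglets, with 15 and 18 cells, *Sis* was at 1294 and 528 CPM, while *Alpi* was nearly level at 2694 and 2915 CPM. Gate and mouse go together in these values. EpcamPdgfraDoublets and Nt5ePdgfraDoublets came from mouse A alone and EpcamSinglets from mouse H alone, while PdgfraSinglets came from mice A and G. A difference between gates thus cannot be told apart from a difference between mice. With the CD45 plates left out both enzymes stayed past the threshold.

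Other genes of the enterocyte surface are given beside the 13.4% of all genes called. Of 12 tested apical hydrolases only *Enpp3*, a nucleotide pyrophosphatase, was called, higher by 4.23 on the log2 scale (edgeR, adjusted p = 4.47e-22), and none was called lower. Of 14 microvillus genes 4 were called higher, *Cdhr2* (1.53), *Eps8* (1.14), *Espn* (1.11) and *Cdhr5* (0.90), and none lower. Of 11 tested transporters of the same list the amino acid transporter *Slc6a19* was called higher (1.15) and the basolateral glucose transporter *Slc2a2* lower (-1.56).

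Of 13 tested transcription factors 5 were called higher, *Prdm1* (3.58), *Klf4* (2.08), *Creb3l3* (2.07), *Gata6* (2.03) and *Hnf4a* (1.02), and *Cdx1* was called lower (-1.86). Those named for the promoter letters above thus included *Hnf4a*, at 373, 362 and 250 CPM in the cells at 0 of mice A, G and H and at 626, 558 and 372 CPM in the high cells. *Hnf4g*, the other HNF4 gene of the list, had a log2 fold change of -0.40 (edgeR, adjusted p = 0.695). *Gata4* was at -0.21 (edgeR, adjusted p = 0.849) and *Cdx2* at -1.55 (edgeR, adjusted p = 0.231), neither past the threshold. No relation between these factors and the enzymes was tested.

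**Figure D3:**
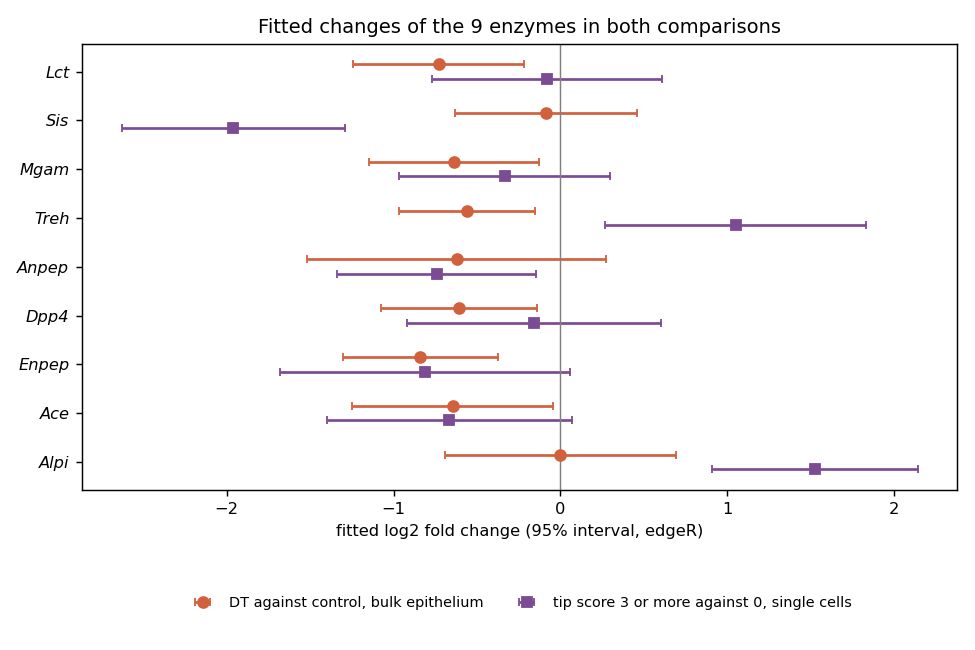
Fitted log2 fold changes with 95% intervals (horizontal axis) of the 9 enzymes, for DT against control in the bulk epithelium (circles) and for a tip score of 3 or more against 0 in single cells (squares). *Sis* at -1.96 and *Alpi* at 1.53 stand apart on the side of the cells, and 8 of the 9 circles are left of 0.

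The 2 comparisons come from different mice and each has its own values for the enzymes. *Sis*, with the lowest log2 fold change in high-score cells (-1.96), was at -0.09 after DT, and *Alpi*, with the highest (1.53), was at 0.0002. *Enpep* was negative in both (-0.81 and -0.84), as was *Anpep* (-0.74 and -0.62), and *Treh* was at 1.05 in the cells and -0.56 after DT. The share of *Alpi* in *Alpi* plus *Sis* was 16.0%, 13.9%, 22.4% and 32.0% in controls 1 to 4 and 10.7%, 11.5%, 42.7% and 26.8% in DT 1 to 4. It was lower in both DT samples of batch a than in their controls, and in batch b the 2 groups overlapped.

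**Figure D4:**
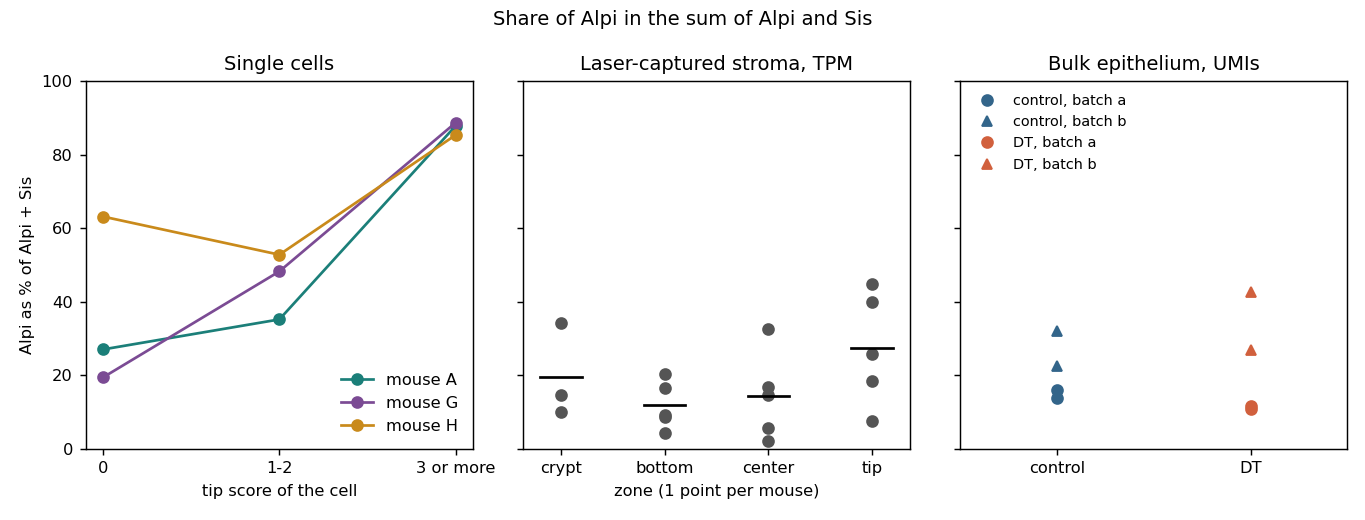
Share of *Alpi* in the sum of *Alpi* and *Sis* (vertical axis, percent) in single cells by tip score and mouse, in LCM zones by mouse (bars are means) and in the bulk samples. The lines of the 3 mice meet at 85.3% to 88.7% in the cells with a score of 3 or more.

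The LCM samples were cut from stroma, and the amount of enterocyte transcripts in them varied widely. The values are TPM (transcript abundances scaled to a fixed total, already per length), averaged per mouse. The 9 enzymes together were at 463 to 4015 TPM in the crypt (3 mice), 2344 to 5158 in the villus bottom, 178 to 4101 in the center and 378 to 3593 in the tip (5 mice each). The 6 enterocyte markers spread as widely, 2636 to 45431 TPM in the tip alone. No enzyme passed in either comparison of zones, with or without the mouse as a block, nor did any gene among the 12000 tested (0% called with limma, and 4.41% for tip against bottom and 3.12% for tip against crypt at an unadjusted p under 0.05).

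*Sis* was at 916, 573, 741, 787 and 707 TPM in the villus bottom of mice 1 to 5 and at 216, 502, 359, 99.2 and 547 TPM in the tip of the same mice. Each tip value was below each bottom value, as for 0.867% of the genes tested. The log2 fold change was -1.33 with an interval of -3.12 to 0.46 (limma, adjusted p = 0.975, and 0.663 with the mouse as a block). The exact permutation p, 1 of 18 such tests of the enzymes, was 0.00794, the smallest that 5 against 5 allows. That test ignored that the same 5 mice gave both zones. With the pairs kept, an exact test of 5 mice cannot give less than 0.0625. *Alpi* was at 234, 113, 70.4, 36.2 and 70.7 TPM in the bottom and at 176, 114, 239, 8.24 and 190 TPM in the tip, higher in 3 of 5 mice (log2 fold change 0.15, interval -2.17 to 2.48). *Alpi* made up 11.8% ± 6.46 of *Alpi* plus *Sis* in the bottom and 27.4% ± 15.3 in the tip (SD, n = 5 each). The share was 19.6% ± 12.9 in the crypt (n = 3) and 14.4% ± 11.9 in the center (n = 5), so it was lowest in the bottom. The ranges of bottom and tip overlapped. In all 5 mice the share was higher in the tip than in the bottom, by 15.6 ± 12.9 percentage points (SD; two-sided exact paired permutation p = 0.0625, the smallest that 5 pairs allow).

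*Dpp4* was at 34.9, 54.5 and 50.4 TPM in the crypt samples of mice 1 to 3 and at 24.0, 24.0, 16.5, 5.52 and 29.1 TPM in the tip of mice 1 to 5. All tip values lay below all crypt values, as for 2.11% of the genes tested (log2 fold change -1.34, interval -3.36 to 0.68, limma, adjusted p = 0.995). The exact permutation p was 0.0357, from a test that ignored that mice 1 to 3 gave both zones. For the other enzymes tip against crypt ranged from -0.57 (*Mgam*) to 0.63 (*Lct*), with *Sis* at -0.29, and tip against bottom from -1.92 (*Mgam*) to 0.15 (*Alpi*), none past the threshold.

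**Figure D5:**
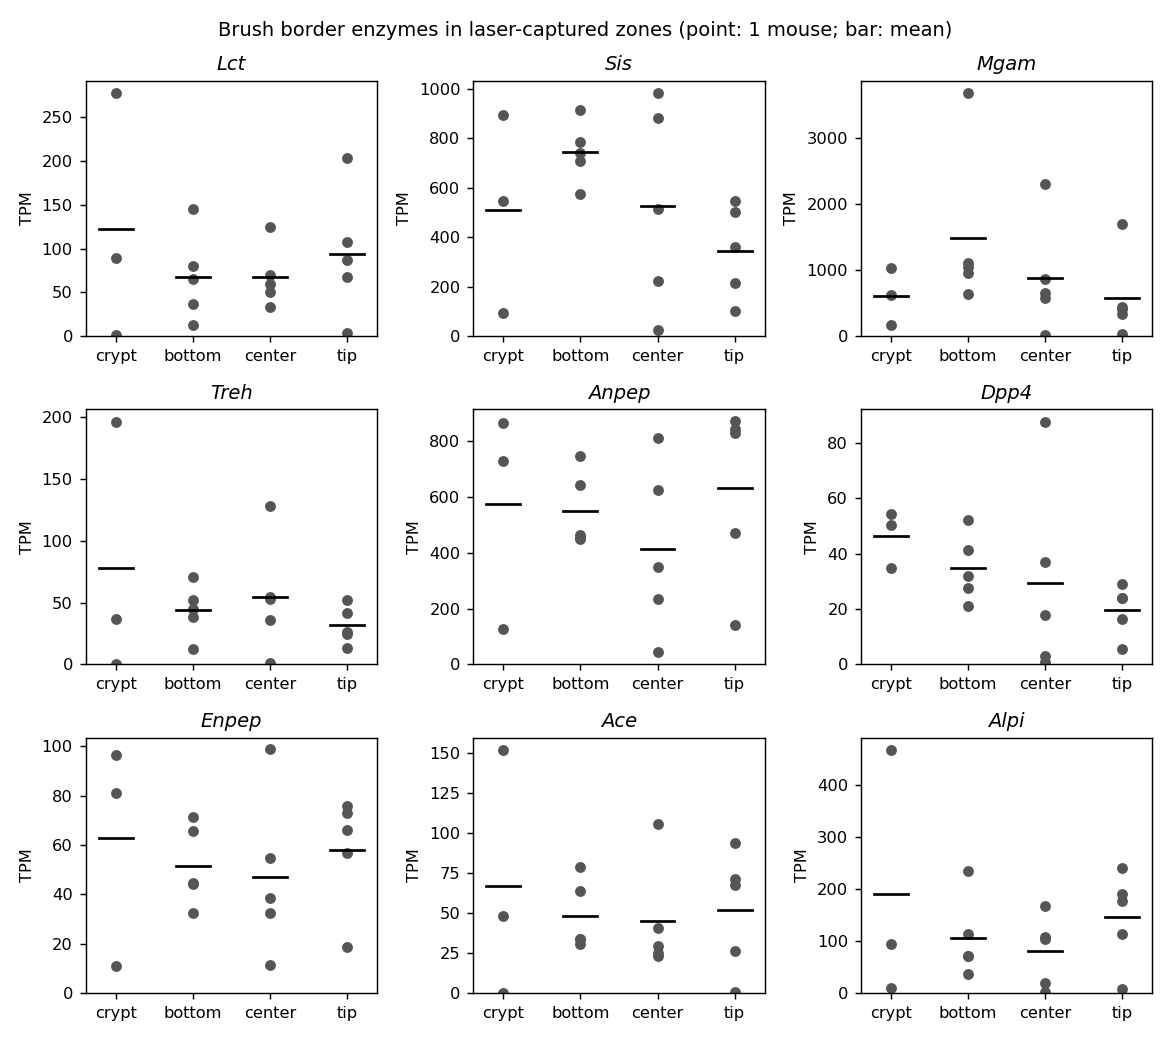
TPM of each enzyme in the LCM zones (vertical axis from 0; a point is the mean of the sections of 1 mouse, a bar the mean over mice). *Sis* lies at 573 to 916 TPM in the villus bottom and at 99.2 to 547 TPM in the tip, and the other panels overlap between these zones.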

How the data were processed

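The enzymes and the gene lists were chosen with earlier results of these data known. For the bulk epithelium and the single cells the authors deposited raw UMI counts per gene, made with zUMIs on GRCm38 after bcl2fastq 2.15.0.4 per the labels. For the LCM stroma the authors deposited TPM values per gene and section (29 sections, 5 mice). The authors' filters on cells were not applied to the deposited single-cell counts, so wells under 400 or over 8000 UMIs, or under 250 genes, were dropped here. 352 wells matched no sample and were not used. The 380 well barcodes of the kept cells recur between plates by design (377 on more than 1 plate), and cells were told apart by plate and barcode. No doublet caller was run, because several gates sorted doublets.

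Count tests were run in edgeR 4.0.16 by the quasi-likelihood method after TMM scaling (Benjamini-Hochberg adjustment, genes above 10 CPM in 2 samples), with batch as a term in bulk and UMIs summed per mouse and class in single cells, and LCM values with limma 3.58.1 on log2(TPM + 1), genes above 5 TPM in a zone, so fold changes of low genes are understated. Fits were tested on simulated data. Exact tests used scipy 1.17.1 on log2(CPM + 1) or log2(TPM + 1), two-sided. In the single cells and the LCM zones they ignored the pairing by mouse, except for the paired test of the *Alpi* share. The genes named are the 9 enzymes, the score genes, *Lgr5*, list genes past the threshold and up to 6 others a list, and the 3 genes most like *Lct*, *Sis*, *Anpep* and *Alpi*. Bulk samples with the same number deviated together (r = 0.41 to 0.66), and samples with the same number also share a batch. Within a batch r was -0.16 and -0.06, each from only 2 samples of a group. The source of the agreement was not tested. Classes of 1 mouse share the animal (r = 0.04 to 0.15). Alternatives were other scalings, DESeq2 1.42.0, no low filter, other cell filters, blocks and leaving out each replicate. Promoter windows are RefSeq's on GRCm38.p6 and all 9 enzymes matched.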

Additional observations from a re-analysis of the deposited data

Results flagged for a closer look

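In 45 groups of 4 or 5 samples, 18 in the bulk and 27 in the LCM zones, 5 held a sample far from the rest by Dixon's gap ratio (gap over range), where chance gives about 1 in 20. In the bulk controls *Ace* was at 1052 CPM in control 1 against 621 to 649 CPM in the other 3 (ratio 0.935). In the DT samples *Alpi* was at 1008 CPM in DT 3 against 366 to 388 CPM in the other 3 (ratio 0.966). In the LCM villus bottom *Mgam* was at 3672 TPM in mouse 4 against 629 to 1108 TPM (ratio 0.843), and in the villus tip at 1699 TPM in mouse 5 against 32.1 to 443 TPM (ratio 0.753). In the villus center *Ace* was at 105 TPM in mouse 2 against 23.2 to 40.5 TPM (ratio 0.789).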

How the results depend on the processing

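For DT against control 32 genes were called, and 143 with DESeq2, 635 without the filter on low counts, 1 without the batch term, 3 with the replicate block, 0 in batch a alone (721 genes at an unadjusted p under 0.05, edgeR) and 5 in batch b alone. Leaving out 1 sample gave 3 (without control 1) to 41 genes (without DT 1), and no enzyme was called (0 in each). Enzymes were called with DESeq2 (3: *Lct*, *Mgam* and *Enpep*) and without the filter (1: *Enpep*). *Sis* turned to 0.031 without the batch term and 0.24 in batch a alone, and ranged from -0.20 to 0.072 with 1 sample left out, positive without control 3 or DT 4. *Alpi*, at about 0, turned to -1.74e-05 with DESeq2, -0.087 with the replicate block and -0.27 in batch a alone, and ranged from -0.42 to 0.20 with 1 sample left out. The replicate block changed no call of an enzyme in the bulk.

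For the tip score 1135 genes were called, 449 without the doublet gates and 723 with DESeq2, and 202 (without mouse G) to 1353 (without mouse H) with 1 mouse left out, 302 without mouse A. The 2 enzymes called became 1 without the doublet gates, where *Alpi* lost its call, 4 with 5 cells per class and mouse, where *Anpep* (-0.89) and *Enpep* (-1.32) also passed, and 0 to 3 with 1 mouse left out: without mouse G neither *Sis* nor *Alpi* passed, and without mouse H *Treh* (1.30) passed too. *Anpep* also passed with RLE factors and with a lower limit on UMIs, and *Treh* with the replicate block, in cells with no *Ptprc*, *Pdgfra* or *Pecam1* UMI and in cells with a *Vil1* or *Krt20* UMI, an alternative chosen, like leaving out the CD45 plates, after seeing the data. *Lct* turned to 0.049 in cells of intermediate depth and 0.20 with 5 cells per class and mouse. With 1 mouse left out *Lct* ranged from -0.33 to 0.11, *Dpp4* from -0.52 to 0.090 and *Ace* from -1.18 to 0.089, each positive without mouse H, *Sis* from -2.32 to -1.69 and *Alpi* from 1.01 to 2.40.

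In the LCM zones no enzyme passed under any alternative, and 1 gene was called for tip against crypt without the filter on low values. For tip against crypt, *Sis* turned to 0.0037 with the replicate block and *Treh* to -0.054 at a pseudocount of 5 TPM. With 1 mouse left out *Lct* ranged from -1.60 to 1.63, *Sis* from -1.45 to 0.48, *Mgam* from -1.44 to 0.25, *Treh* from -1.67 to 1.90, *Anpep* from -0.77 to 0.76, *Enpep* from -0.77 to 1.01, *Ace* from -1.87 to 1.74 and *Alpi* from -1.18 to 1.35. For tip against bottom *Lct* ranged from -0.57 to 1.12, *Anpep* from -0.25 to 0.38, *Enpep* from -0.20 to 0.40, *Ace* from -1.15 to 0.30 and *Alpi* from -0.25 to 0.69, while *Sis* stayed below 0 (-1.62 to -0.92). The cause of these shifts was not tested. The TPM values hold no depth, and the sums of cells rest on 3 mice.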
